A study of Arabidopsis thaliana with 6 samples.

Results

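A set of transcripts that stood lower in Arabidopsis thaliana leaves 1 h after a spray with the detergent Tween 20 is described here. Its members are the probe sets (groups of array probes for 1 transcript) that were at least 1.5-fold lower with Tween 20 than with water, at log2(Tween/water) of -0.585 or lower, in both experiments collected at 1 h, and whose brighter signal of each of these pairs reached the 40th percentile of its array. Of 22746 probe sets, 131 met these thresholds. The 6 of UGT78D1, SWEET1, SAG29, AT4G26790, AT1G29660 and AT1G67750 were not included, which left 125 members. Of these, 69 carried the name of 1 gene, 3 matched several genes and 53 had no gene name here, so the genes named below stand for a part of the set only. The signals of the 1 h arrays chose the members, so their 1 h values are given as a description with no test.

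All plants were of the Col-0 ecotype, 28 days old, and grown in sterile glass jars (0.5 L) on MS medium with sucrose. Control leaves were sprayed with distilled water and treated leaves with 0.2% (1.6 mM) Tween 20, a non-ionic detergent. The biological repetitions IA and IB were sampled at 1 h and experiment II at 2.5 h, and each comprised 1 water array and 1 Tween array. Every array carried RNA pooled from 3 extracts, so the spread between extracts is hidden, and precision is limited by the number of arrays. Some treatment texts of the labels named water for Tween samples and 2.5 h for IA, and the groups rest on the titles and the design text. The leaf marker RCA, the activase of the carbon-fixing enzyme Rubisco, was at 3601 to 4176 units on all 6 arrays, and the root hair gene EXPA7 was at 7.1 to 17.1 units, below the 40th percentile (20.6 to 23.9 units) of each array. In whole leaves, fewer cells of a type and less RNA per cell cannot be told apart.

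The largest of the role groups that named members were put in holds proteins that build or remodel the plant cell wall. Pectins are the acidic polysaccharides of the primary wall, and polygalacturonases and pectate lyases cut their backbone, while methylesterases, acetylesterases and their inhibitors set how the backbone is decorated. Actin filaments and microtubules guide the delivery and the order of wall polymers. Flavonols, a class of flavonoid, are stored in leaves as sugar conjugates that glycosyltransferases make.

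At 1 h the log2 folds of the 125 members ran from -4.08 to -0.59 in IA, with a median of -0.85, and from -3.32 to -0.59 in IB, with a median of -0.75. The rule was met by 0.964% of the 13593 probe sets bright in both pairs, the 6 genes left out included, whereas 2.71% were at least 1.5-fold higher in both. In IA alone 6.58% of bright probe sets were at least 1.5-fold lower, and in IB alone 4.02%. A difference of at least 2-fold in both repetitions was seen for 16 members, 7 of them named. The SD between the repetitions had a median of 0.12 over the members, and 83 of 125 were lower in IA than in IB. The median member signal was 69.8 units with water and 36.2 units with Tween 20 in IA, and 66.1 and 38.9 units in IB. Under Tween 20, 86 members stayed at or above the 40th percentile in both repetitions, 19 were below it in one and 20 were below it in both, and the folds of such dim signals are the least certain. Near the threshold, AT1G73760, of the RING finger family, lay just inside with -0.69 in IA and -0.59 in IB, and AT4G24610 with -1.0 and -0.59. Just outside were AT3G14740 (-0.62 and -0.58) and AT1G22550 (-0.67 and -0.58), whose IB ratios of exactly 1.5 missed the threshold by its rounding.

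**Figure D1:**
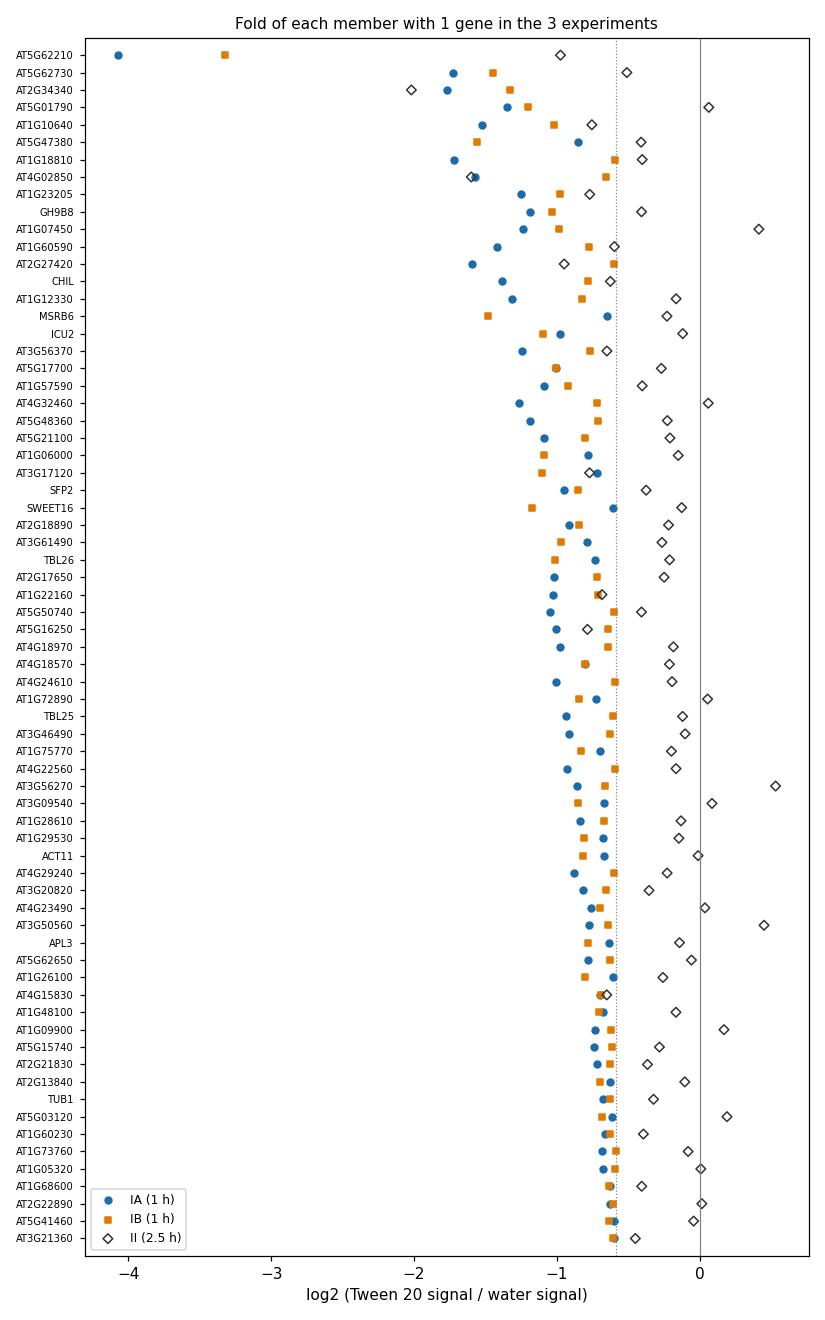
Log2 ratio of the Tween 20 signal to the water signal for each of the 69 members with 1 gene, in IA (filled circles), IB (filled squares) and II (open diamonds), 1 value per experiment, ordered by the mean of IA and IB; the dotted line is the threshold of -0.585 that IA and IB had to meet. In II, 57 of the 69 diamonds lie below 0 and 12 above it, where 52.3% of all probe sets bright in II were below 0. Most diamonds lie nearer 0 than the 1 h values that chose the genes.

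The named member furthest below water at 1 h was AT5G62210, which encodes a protein similar to the embryo-specific protein ATS3. Its signals in IA were 37.1 units with water and 2.2 units with Tween 20, in IB 29.0 and 2.9 units, and in II 45.8 and 23.3 units. Its Tween signals at 1 h were far below the 40th percentile, so the mean log2 fold of -3.70 ± 0.53 (SD, n = 2) is uncertain in size. All 3 Tween signals lay under all 3 water signals. The 1 h arrays chose the members, so nothing is read from such a separation here or for the genes below. AT5G62730, a transporter of the NRT1/PTR family, went from 35.4 to 10.7 units in IA and from 55.3 to 20.3 units in IB. In II it was dim with both sprays, at 14.1 and 9.9 units, so its fold there is not read. AT2G34340 was at 22.2 and 6.5 units in IA, 29.2 and 11.6 in IB, and 23.1 and 5.7 in II. Its water signal was just above the 40th percentile in IA and below it in II, and its fold of -2.02 in II, lower than at 1 h, comes from a pair in which both signals were dim.

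AT5G01790 was at 129.1 and 50.7 units in IA and at 82.8 and 35.9 units in IB, 2.42-fold lower with Tween 20 on average (log2 -1.28 ± 0.10). In II it was at 97.5 units with water and 101.9 units with Tween 20, a log2 fold of 0.06 from 1 pair with no replicate. AT5G47380 was at 48.4 and 26.8 units in IA, 31.0 and 10.5 in IB, and 63.4 and 47.7 in II. AT1G18810, of the phytochrome kinase substrate family that acts in light signalling, was at 68.4 and 20.8 units in IA, 30.6 and 20.3 in IB, and 62.0 and 46.9 in II. Its repetitions lay furthest apart of all members (-1.72 and -0.59, SD 0.80), and its Tween signals at 1 h were below the 40th percentile. AT4G02850, of the PhzF family of phenazine biosynthesis-like proteins, was at 60.7 and 20.4 units in IA, 40 and 25.4 in IB, and 50.3 and 16.6 in II. It stood lower by a similar log2 fold in IA (-1.57) and II (-1.60) and by less in IB (-0.66). Its Tween signals in IA and II were below the 40th percentile, so these 2 folds are uncertain in size.

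**Figure D2:**
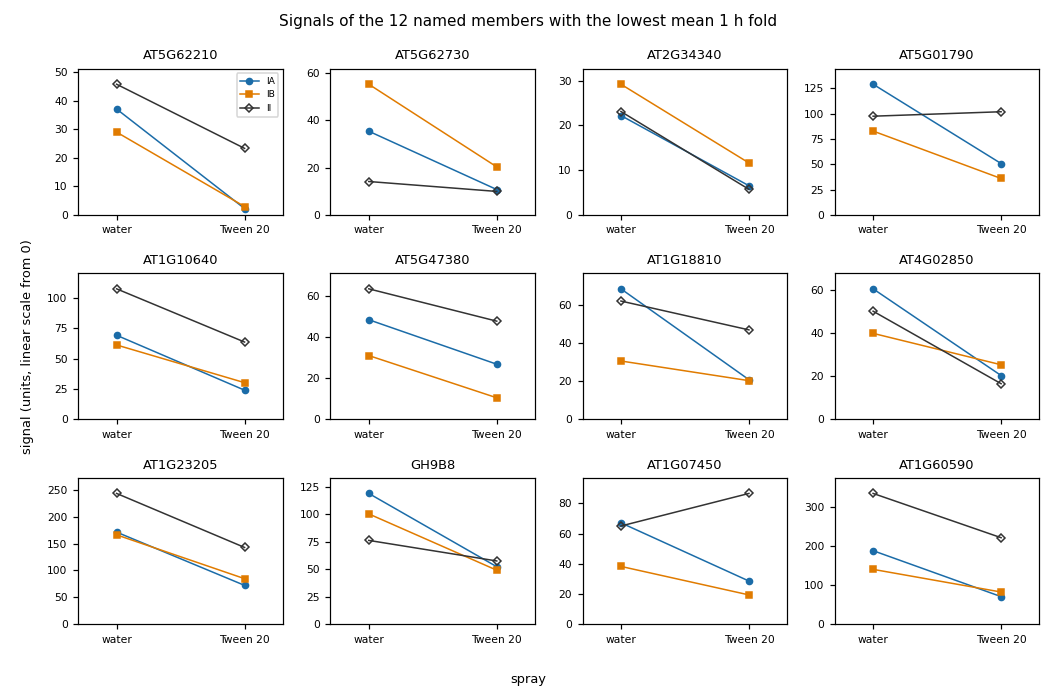
Signal on the array of each spray, in units on a linear axis from 0, for the 12 members with 1 gene whose mean 1 h fold was lowest; each line joins the water and the Tween 20 array of 1 experiment (IA, IB or II). In AT5G01790 and AT1G07450 the line of II rises from water to Tween 20, and in the other 10 panels all 3 lines slope down.

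By role, 12 of the 69 named members belonged to pectin and the cell wall, the most of any of the groups described here. These groups were assigned after the members were known, from general knowledge of the genes and not from an annotation, and no enrichment was tested. The share of wall genes among all named probe sets was not counted, so no theme of the set is read from the 12. The wall members had mean 1 h log2 folds between -1.27 and -0.68, with a median of -0.94. In II, 10 of the 12 were below 0 and 3 were at least 1.5-fold lower, with a median of -0.27. Of all probe sets bright in II, 52.3% were below 0 and 2.5% at least 1.5-fold lower. The 119 members bright in II gave 84.9% and 15.1%, with a median of -0.25. Low folds in II were thus shared by the whole set and not particular to the wall members. AT1G10640, of the polygalacturonase family, was at 69.4 and 24.1 units in IA, 61.4 and 30.3 in IB, and 107.7 and 63.8 in II. It was 2.42-fold lower at 1 h and 1.69-fold lower in II, where both signals were higher than those of the same spray at 1 h. AT1G60590, of the same family, was at 188.0 and 70.2 units in IA, 140.1 and 82.0 in IB, and 334.8 and 221.3 in II (log2 -1.42, -0.77 and -0.60). AT1G23205, of the pectin methylesterase inhibitor family, was at 171.3 and 72.0 units in IA, 166.2 and 84.5 in IB, and 243.4 and 142.7 in II. It stood lower in each experiment (-1.25, -0.98 and -0.77), in IA and IB by the rule. Its highest Tween signal was below its lowest water signal, a separation that the rule favoured.

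GH9B8, a glycosyl hydrolase of the endoglucanase type, was at 118.7 and 52.1 units in IA, 100.1 and 48.9 in IB, and 76.0 and 57.3 in II, with a water signal in II below both of those at 1 h. The pectin acetylesterase family member AT1G57590 had log2 folds of -1.09 (IA), -0.92 (IB) and -0.40 (II). Its signals in II, 155.2 and 117.4 units, were higher than at 1 h with either spray. The polygalacturonase family members AT3G61490 and AT1G48100 were at -0.79, -0.97 and -0.26 and at -0.68, -0.71 and -0.17. AT5G15740, a rhamnosyltransferase of the pectin rhamnogalacturonan I, was at -0.74, -0.61 and -0.28. Of the 12, those above 0 in II were AT4G32460, a DUF642 cell wall protein (-1.26, -0.72 and 0.06), and AT3G09540, of the pectate lyase family. AT3G09540 was at 36.2 and 22.8 units in IA, 42.1 and 23.3 in IB, and 58.8 and 62.4 in II, so that its fold was near 0 in II (0.09) at a higher signal with both sprays.

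TBL26 and TBL25, trichome birefringence-like proteins of a family of polysaccharide O-acetyltransferases, were the remaining wall members, and TBL26 was the brightest named member at 1 h with water. TBL26 was at 578.0 and 346.9 units in IA, 384.0 and 189.8 in IB, and 494.5 and 427.2 in II, a log2 fold of -0.74, -1.02 and -0.21. TBL25 was at -0.94, -0.61 and -0.12. The family had 14 probe sets that were found by gene symbol and bright enough to be tested, with median log2 folds of 0.10 (IA), -0.11 (IB) and 0.12 (II). Probe sets without such a symbol are missing from these family counts and medians, here and below. TBL45 came close to the threshold at 1 h (-0.57 and -0.87) and stood at 0.37 in II, and 5 of the 14 were below 0 in both repetitions. Another 5, such as TBL18 (0.19 and 0.17) and TBL32 (0.49 and 0.15), were above 0 in both. Of 6 tested members of glycosyl hydrolase family 9 found by symbol, GH9B8 was the one in the set and 4 were below 0 in both repetitions. GH9C2 was at -1.14 and -0.56, and the family medians were -0.54 (IA), -0.61 (IB) and -0.36 (II).

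**Figure D3:**
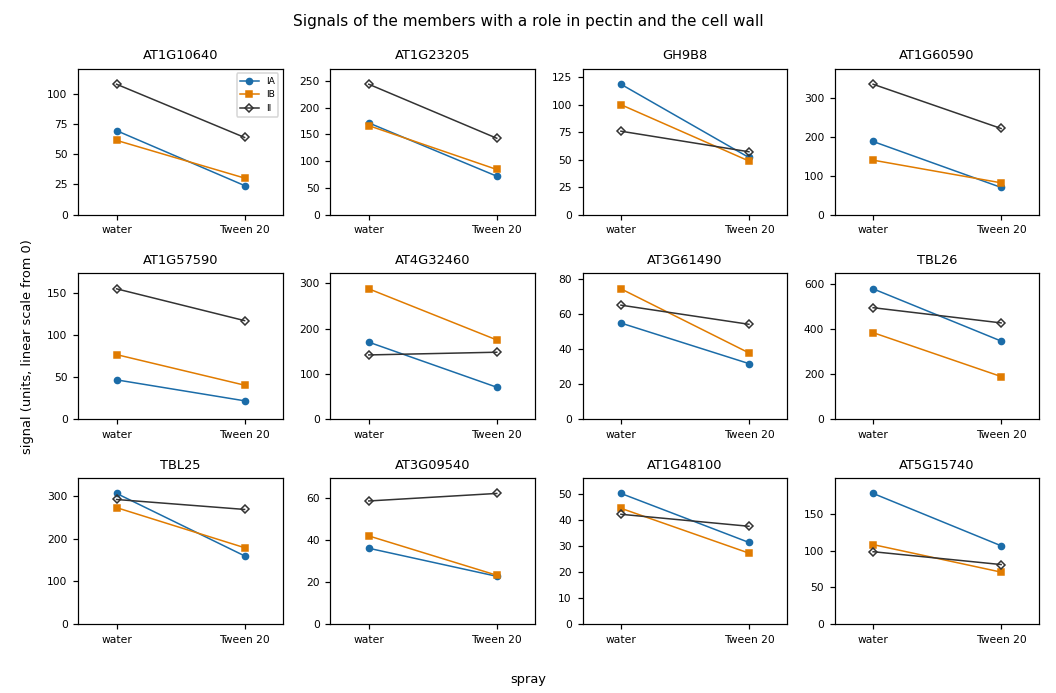
Signal on the array of each spray, in units on a linear axis from 0, for the 12 members with a role in pectin and the cell wall; each line joins the water and the Tween 20 array of 1 experiment (IA, IB or II). The lines of IA and IB slope down by the choice of the members, and the line of II slopes down in 10 panels and rises slightly in AT4G32460 and AT3G09540.

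The cytoskeleton was represented by ACT11, an actin, TUB1, a beta-tubulin, and AT5G48360, a formin, which nucleates actin filaments. ACT11 was at 168.0 and 105.5 units in IA, 119.3 and 67.8 in IB, and 101.0 and 100.2 in II. Its water signal in II lay between those of the 1 h Tween arrays, and its log2 fold went from -0.67 and -0.82 to -0.01. TUB1 was at 73.5 and 46.0 units in IA, 106.2 and 68.7 in IB, and 72.7 and 58.1 in II, with a log2 fold of -0.32 in II. Of 7 tested tubulins found by symbol it was the one member of the set. TUB5 was at -0.47 and -0.54 at 1 h, and the medians of the 7 were -0.22 and -0.26. TUB1 and AT1G75770 (-0.70 and -0.83 at 1 h, -0.20 in II) neighbour each other in the annotation with no protein-coding gene between them, and no other named members were adjacent. AT5G48360 was at -1.19, -0.71 and -0.23.

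The flavonoid members were CHIL and AT1G06000. CHIL, a chalcone isomerase-like protein that aids the entry into flavonoid synthesis, was at 278.9 and 106.8 units in IA, 123.2 and 71.8 in IB, and 225.0 and 145.8 in II. It stood 1.54-fold lower in II, after log2 folds of -1.38 and -0.78 at 1 h. AT1G06000 encodes UGT89C1, which adds rhamnose to flavonols at the 7 position. It was at 382.0 and 221.8 units in IA, 237.7 and 111.5 in IB, and 281.5 and 253.6 in II, with a log2 fold of -0.15 in II. UGT78D1, a flavonol glycosyltransferase, met the thresholds too and is among the 6 genes not included. DFR, a reductase of anthocyanin synthesis, was at 0.06 and -0.55 and UGT78D2, a flavonol glucosyltransferase, at -0.65 and 0.02 in IA and IB, and neither met the rule.

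Of 7 members of transport and starch synthesis, AT5G62730 was dim in II. All of the other 6 were below 0 there, with a median of -0.32, and 0 were 1.5-fold lower. Of all members bright in II, 84.9% and 15.1% were, and of all bright probe sets 52.3% and 2.5%. SWEET16, a sugar transporter of the vacuole membrane, was at 51.7 and 33.9 units in IA, 66.0 and 29.3 in IB, and 57.2 and 52.4 in II. SFP2, of the sugar porter family, stood at -0.95, -0.85 and -0.38, and all its Tween signals lay under all its water signals, which the rule favoured. APL3, a large subunit of the enzyme that makes ADP-glucose for starch, was at -0.63, -0.78 and -0.14. Its relative APL4, at -0.52 in both repetitions, did not meet the rule. APS3 (0.56 and -0.51) and APS4 (-0.06 and 0.06), tested for the same enzyme, did not meet it either. AT5G17700, of the MATE efflux family, was at -1.01 in both repetitions and -0.27 in II. AT5G50740, with a heavy-metal-associated domain, and AT1G68600, of the malate transporter family, were both at -0.41 in II. Among the 10 tested SWEET genes found by symbol, SWEET1 and SAG29 also met the thresholds, and the medians of the 10 were -0.11 in IA and -0.28 in IB.

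Of 7 redox members 5 were below 0 in II and 0 were 1.5-fold lower, where 52.3% and 2.5% of all bright probe sets were, so that nothing is read from these counts. MSRB6, a methionine sulfoxide reductase, was at 502.6 and 320.1 units in IA, 205.0 and 73.4 in IB, and 392.4 and 334.7 in II. Its log2 fold was lower in IB (-1.48) than in IA (-0.65). Of its tested relatives found by symbol, MSRB9 was higher in IA (1.52) and near 0 in IB (-0.05). MSRB5 was lower in both (-0.30 and -0.55), and MSRB3 was at 0.02 and -0.19. AT5G21100, of the ascorbate oxidase family of the cell wall space, was at 329.9 and 154.9 units in IA, 326.9 and 187.6 in IB, and 331.5 and 286.9 in II. Its water signals were nearly equal in the 3 experiments, and its Tween signal was lower by less in II (-0.21). AT1G07450, a short-chain dehydrogenase similar to tropinone reductase, was at 67.1 and 28.5 units in IA, 38.2 and 19.3 in IB, and 65.0 and 86.6 in II. AT3G50560, of a Rossmann-fold dehydrogenase family, was at 127.8 and 74.6 units in IA, 187.3 and 119.8 in IB, and 86.8 and 118.6 in II. Both were higher with Tween 20 in II (0.41 and 0.45), AT1G07450 with a Tween signal above every water signal and AT3G50560 with a water signal below those of 1 h. The cytochrome b561 family member AT1G26100 and the oxygenase family members AT3G46490 and AT3G21360 were at -0.26, -0.10 and -0.45 in II.

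The 7 members of receptors and signalling ran from -0.65 to 0.06 in II. Below 0 there were 6, where 84.9% of all members bright in II and 52.3% of all bright probe sets were. AT3G56370, the leucine-rich repeat receptor-like kinase IRK, was at 263.8 and 111.5 units in IA, 162.0 and 94.9 in IB, and 283.4 and 180.6 in II, 1.57-fold lower in II. AT3G20820, of a leucine-rich repeat family, was at 291.7 and 165.2 units in IA, 343.4 and 218.3 in IB, and 402.2 and 314.5 in II. AT4G29240, of the same kind, was at -0.88, -0.60 and -0.23, the protein kinase AT2G18890 at -0.91, -0.85 and -0.22, and AT1G72890, of the TIR-NBS resistance family, at -0.72, -0.85 and 0.06. Of the 4 lipid members, the GDSL lipases AT4G18970 and AT1G28610 were at -0.18 and -0.13 in II, the acyl-activating enzyme AT2G17650 at -0.25 and the desaturase-like AT2G22890 at 0.01.

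The other 27 named members were put in no group. AT2G27420, of the papain-type cysteine proteases, was at 323.3 and 107.3 units in IA, 172.6 and 113.8 in IB, and 183.8 and 95.2 in II. It was 1.93-fold lower in II and had every Tween signal under every water signal, which the rule favoured. AT3G17120 was at 135.4 and 82.3 units in IA, 59.2 and 27.5 in IB, and 110.6 and 64.8 in II (log2 -0.77). AT5G16250 was at 92.4 and 46.1 units in IA, 116.7 and 74.8 in IB, and 126.4 and 73.3 in II (-0.79), with a fold in II between those of IA and IB. AT1G22160 and AT4G15830 were also at least 1.5-fold lower in II, at -0.68 and -0.65. ICU2, the catalytic subunit of DNA polymerase alpha, was at -0.98 and -1.10 at 1 h, with Tween signals of 13.3 units in both repetitions. In II it was dim with both sprays, at 22.7 and 20.9 units, so its fold there is not read.

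In the other direction, AT3G56270 was at 24.3 and 13.4 units in IA, 25.0 and 15.8 in IB, and 19.1 and 27.6 in II. It had the highest fold in II of all members (0.53), at low signals of 13.4 to 27.6 units on every array. AT5G03120 was at 198.0 and 129.1 units in IA, 124.7 and 77.5 in IB, and 108.2 and 123.5 in II (0.19). AT1G09900, a pentatricopeptide repeat protein, was at 255.9 and 154.0 units in IA, 129.0 and 83.8 in IB, and 210.1 and 236.3 in II (0.17). AT4G23490 and AT5G41460, which share a DUF604 domain, were at 0.04 and -0.04 in II. Among the members without a gene name, the 2 lowest at 1 h had these signals. The first was at 45.2 and 10.6 units in IA, 162.8 and 47.7 in IB, and 54.5 and 26.6 in II (-1.03), and the second at 507.7 and 145.5, 491.6 and 151.6, and 341.5 and 268.1 units (-0.35 in II).

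Experiment II did not enter the rule, and most members were below water in it too. Of the 119 members bright in II, 101 (84.9%) were below 0, where 52.3% of all 14074 bright probe sets were. At least 1.5-fold lower in II were 18 members (15.1%), 12 of them named, against 2.5% of all bright probe sets, and 2 members were 2-fold lower, AT4G02850 and the first of the members without a gene name given above. At least 1.5-fold higher were 0 members, against 4.7% of all. The median of the bright members in II was -0.25, with quartiles of -0.41 and -0.12, where that of all bright probe sets was -0.02, with quartiles of -0.18 and 0.17. These shares differed between the repetitions. Of probe sets chosen by the rule on IA alone, 78.3% were below 0 in II. Of those chosen on IB alone, 55.8% were, close to the 52.3% of all. Both of these choices include all 125 members, which raises their shares. The shares without the members were not counted. With the members in, the shares at least 1.5-fold lower in II were 11.1% and 6.16%, against 2.5% of all. The part in this of the label text that names 2.5 h for IA was not tested.

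**Figure D4:**
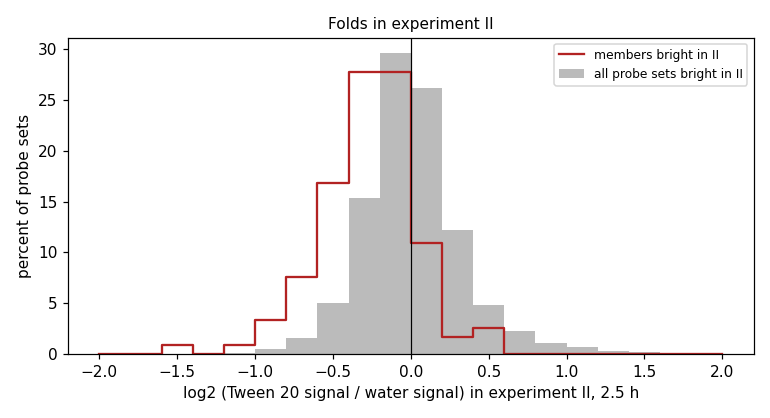
Percent of probe sets in each range of log2(Tween/water) in experiment II (2.5 h), in steps of 0.2, for the 119 members bright in II (line) and all 14074 probe sets bright in II (grey bars); values beyond 2 in either direction are counted in the outermost steps. The members lie to the left of 0 for the most part, with a median of -0.25 against -0.02.

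As experiment II is 1 pair, its folds were tested in limma against the spread of the 1 h pairs, and 0 of 14345 probe sets (0%) passed at an adjusted p under 0.05. No adjusted p was below 0.998, while 586 of these probe sets reached p under 0.05 before adjustment. Of the 125 members, 15 reached that level, all of them lower, against 1.46% of all tested probe sets that were lower at this level. The lowest of these p-values among named members was that of AT4G02850 (log2 fold -1.60 ± 0.39, SE, limma adjusted p = 0.998), followed by AT2G34340, AT1G23205 (-0.77 ± 0.23), AT5G16250 (-0.79 ± 0.24) and AT3G17120 (-0.77 ± 0.25). The spread in this test comes from IA and IB, which chose the members, so its p-values are not independent of the choice. No fold in II therefore has a replicate check.

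The fold of II was nearer 0 than both 1 h folds for 118 of 125 members, between them for 4 and lower for 3. Since the members were chosen for low folds at 1 h, this is a description only. By array, the Tween signal in II was above both 1 h Tween signals for 99 members and the water signal in II was above both 1 h water signals for 46, between them for 45 and below both for 34. The median member was 0.73 higher in log2 signal on the Tween array of II than on those of 1 h and 0.17 higher on the water array, where all tested probe sets had medians of 0.08 and 0.06. The rule favoured low Tween signals beside water at 1 h, so nothing is read from these counts and medians. Such counts were not made over all probe sets. The median member signal in II was 77.1 units with water and 64.6 units with Tween 20. Without overlap between sprays over the 3 experiments were 40 members, 37 of them bright in all pairs, with every Tween signal under every water signal, against 3.45% of the 13310 probe sets bright in all 3 pairs. The rule used 4 of these 6 arrays, so nothing is read from that count. Time cannot be told apart from experiment in these data.

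Of 158 genes in 12 lists of leaf and growth pathways, 10 had a probe set that was named and bright enough to be tested, and 0 of these were members. The clock gene GI was at -0.45, -0.06 and 0.13, the wall-loosening expansins EXPA4 and EXPA8 were at -0.15 and 0.12 and at -0.22 and -0.35 at 1 h and at -0.64 and -0.93 in II, and the auxin-regulated HAT2 was at 0.12, 0.40 and -0.09. So few list genes had a probe set with a name that these values do not stand for their pathways. Over the array, 13513 of 22746 probe sets carried 1 gene name, so names were rarer among these list genes. The named members may likewise not represent the whole set. The 69 named members lay on all 5 chromosomes, with 22 on chromosome 1, 8 on 2, 11 on 3, 12 on 4 and 16 on 5.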

How the data were processed

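The deposited table holds 1 linear signal intensity per probe set and array, which the authors made with MAS5, as the submitters' processing notes say. Neither its version nor its scaling target is given, and detection calls were not used here. Signals of 6 arrays were used as deposited, with a floor of 0.1 before log2. A probe set was bright in a pair if its brighter signal reached the 40th percentile of its array. Array medians ran from 36.5 to 40.5 units. Gene names were taken from GEO's annotation of the platform, which gave 1 gene for 13513 probe sets, several for 503 and none for 8730, and 13436 were matched by gene identifier to RefSeq (TAIR10.1). The members, gene lists and roles were chosen with earlier results of these data known. The text gives every array for the 12 lowest at 1 h, the 6 lowest and 6 highest in II and the 5 brightest named members, and some further members chosen after their values were seen.

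The 2.5 h effect was fitted in limma 3.58.1 (R 4.3.3) on all 6 arrays, with experiment as a block, an intensity trend and Benjamini-Hochberg adjustment over 14345 probe sets that reached the 40th percentile on at least 2 arrays, a filter that all 125 members passed. It left 1 residual degree of freedom, to which the prior added 4.8. The pairing comes from the titles and design text, and water and Tween arrays of the same experiment deviated together (r = 0.576, 0.714 and 0.711). Error is the SD over 2 repetitions or the SE of the fit, and it covers the spread between pooled samples only. For the members, the choice on both 1 h pairs limits the SD. The fit was run on simulated data with independent noise and changes larger than those of the members in II. That run checked the sign and mean error of the estimates only and does not show the power of the test. Alternatives were other normalizations, a pseudocount, other filters, a 2-fold threshold, leaving out each repetition and no block. Promoter motifs were planned and not analysed here.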

Additional observations from a re-analysis of the deposited data

Results flagged for a closer look

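For 12 of the 69 named members the pair of II was above 0, while both 1 h pairs were below 0 by the rule. The other 57 were below 0 in II, and some of the 69 were dim there. Of all members bright in II, 84.9% were below 0, against 52.3% of all bright probe sets. Nothing is read from the 12 as a group. The difference between the times was not tested for these genes, and II is 1 pair. Their log2 folds in II were 0.53 for AT3G56270, 0.45 for AT3G50560, 0.41 for AT1G07450, 0.19 for AT5G03120, 0.17 for AT1G09900, 0.09 for AT3G09540, 0.06 for AT5G01790, AT4G32460 and AT1G72890, 0.04 for AT4G23490, and 0.01 for AT2G22890 and AT1G05320. The last of these was just below 0 with quantile normalization and with median centring.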

How the results depend on the processing

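Both the size of the set and its position in experiment II depended on the choices behind it. With log2(signal + 16), the 60th percentile as the filter, no filter and a 2-fold threshold, the rule gave 51, 62, 648 and 16 probe sets in place of 125. The members below 0 in II were then 45, 52, 377 and 13 in place of 101. Those at least 1.5-fold lower in II were 7, 11, 162 and 4 in place of 18. These 1.5-fold counts made up 14.3%, 18.0%, 25.0% and 28.6% of the members bright in II, in place of 15.1%. Over all bright probe sets the same shares were 0.931%, 1.78%, 8.91% and 2.5%, in place of 2.5%. With no filter, every probe set counted as bright. Leaving out 1 repetition gave 561 (without IA) to 925 (without IB) probe sets, all 125 members included, with 263 to 672 below 0 in II. At least 1.5-fold lower in II were 29 to 95, which was 6.16% to 11.1% of those bright in II, against 2.5% of all. The median fold in II was then -0.055 without IA and -0.23 without IB, and -0.50 with the 2-fold threshold. As shares of the bright members, those below 0 in II made up 91.8% with log2(signal + 16), 85.2% with the stricter filter, 92.9% with the 2-fold threshold, 55.8% without IA and 78.3% without IB, where all probe sets bright in II gave 52.3% (53.1% with the stricter filter), and 58.2% with no filter, where all probe sets gave 50.5%. Quantile normalization and median centring kept 104 and 106 of the 125 and added none. With the dimmer signals also required to reach the 40th percentile, chosen after seeing the data, 86 members were left and 86.0% were below 0 in II. In the 2.5 h test 0 probe sets passed in limma under every alternative run, with 442 to 817 at an unadjusted p under 0.05 where experiment was a block and 87 with no replicate block. The sources of these differences were not tested beyond what the settings themselves change. Dim signals and the single pair at 2.5 h limit the precision.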
